A study of Mus musculus with 12 samples.

Results

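Freshly isolated mouse brain endothelium was compared with all 3 of its in-vitro counterparts together, to describe the genes on which every culture or cell line array lay on the same side of every fresh array. Of 15204 genes measured, 3467 met this rule: on 1646 all 9 in-vitro arrays lay below the 3 fresh arrays, which is 10.8% of all genes, and on 1821 all 9 lay above them, which is 12%. The rule uses the same arrays as the comparison, so membership is a description and carries no test. A gene was said to fall or rise only where limma, fitted over all genes, gave an adjusted p under 0.05 and a log2 difference of at least 1, which is 2-fold, between the mean of the 3 in-vitro group means and the fresh mean. By that test 982 genes fell (6.46% of all genes) and 1133 rose (7.45%), and 837 of the lower and 793 of the higher members were among them.

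RNA was hybridised to 12 single-channel arrays, 3 for each of 4 groups of mouse cells, for which the labels give neither strain, sex nor age. The non-cultured cells (ppMBMEC in the labels) were primary brain microvascular endothelial cells purified on magnetic beads through the endothelial surface molecule PECAM1 and never cultured. The single-cultured cells (pMBMEC) were primary brain microvascular endothelial cells grown on transwell filters for 5 days. The co-cultured cells were grown in the same way with mouse brain glia, themselves cultured for 3 weeks, in the lower well, out of contact. The b.End5 arrays are labelled as an endothelioma line of mouse brain, an immortalised endothelial line, and by that label stand for 1 source whatever the number of arrays. The bead step is named for the non-cultured cells alone, so culture and sorting cannot be told apart here. The labels do not say that replicates were separate preparations, so p-values measure the spread between these arrays, and their number limits the precision. In bulk RNA, fewer cells of a type and less RNA per cell cannot be told apart.

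Brain capillary endothelium forms the blood-brain barrier: tight junctions seal the cells to each other, vesicular transport is kept low, and nutrients cross through dedicated carriers while efflux pumps and enzymes turn back drugs and metabolites. This state is maintained by signals from neighbouring cells, among them Wnt ligands acting through beta-catenin, and by the shear stress of flowing blood. Brain endothelial cells rarely divide in the adult, and many of their barrier genes are known to decline in culture.

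Between 79.4% and 82.9% of the genes on an array lay above its no-target level, which is the level that 95% of the 27 probe sets for bacterial RNA did not exceed. Arrays of a group correlated across genes, which are not independent replicates, at Pearson's r of 0.9935 to 0.9944 for non-cultured cells, 0.9885 to 0.9948 for single-cultured, 0.9857 to 0.9911 for co-cultured and 0.9675 to 0.9951 for b.End5. The array labelled b.End5 2 stood apart: 1106 and 1193 genes lay over 1 log2 unit from b.End5 1 and 3, against 42 between those arrays. It also showed Xist at 6.20 and the Y-linked Eif2s3y at 9.24, where the other 11 arrays lay at 11.09 to 12.48 and 2.74 to 3.42. These values set it apart from the 2 arrays that share its label, so its identity as the same line is in doubt. Without it 982 genes fell and 1180 rose, and the members numbered 1810 below and 2024 above. The endothelial genes Pecam1 and Cdh5 (VE-cadherin) were high on every array, at 11.94 to 13.09 and 11.58 to 12.59, and neither differed between fresh and in-vitro cells past the threshold (log2 differences 0.03, SE 0.16, and 0.14, SE 0.11).

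The members' median log2 difference was -1.02 for the lower and 0.90 for the higher members, against 0.02 over all genes, and 802 and 1026 of them lay under a 2-fold difference. The gap, the distance between the nearest in-vitro and the nearest fresh array, had a median of 0.35 and 0.28 log2 units. It reached at least 1 unit for 322 lower and 281 higher members, at least 2 units for 128 and 116, and at least 4 units for 26 and 8. Just inside the rule among called genes lay the electron carrier Cyb561 (gap 0.01) and the zinc importer Slc39a4, whose gap rounded to 0.00. Just outside lay the Rac activator Tiam1 and the heme-binding protein Hebp1, with overlaps of 0.01 or less. The split between the directions depended on the scale: with every array centred on 11 housekeeping genes the median of all genes moved from 0.02 to 0.27, 739 genes fell and 1631 rose, and 973 members lay below and 3593 above. That set holds Tfrc, which itself fell by 3.12, and without Tfrc the median was -0.02, with 1028 genes lower, 1083 higher, 1754 members below and 1634 above. Centring on the array median gave -0.08, 1121 lower, 1013 higher, and 2034 and 1422 members.

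**Figure D1:**
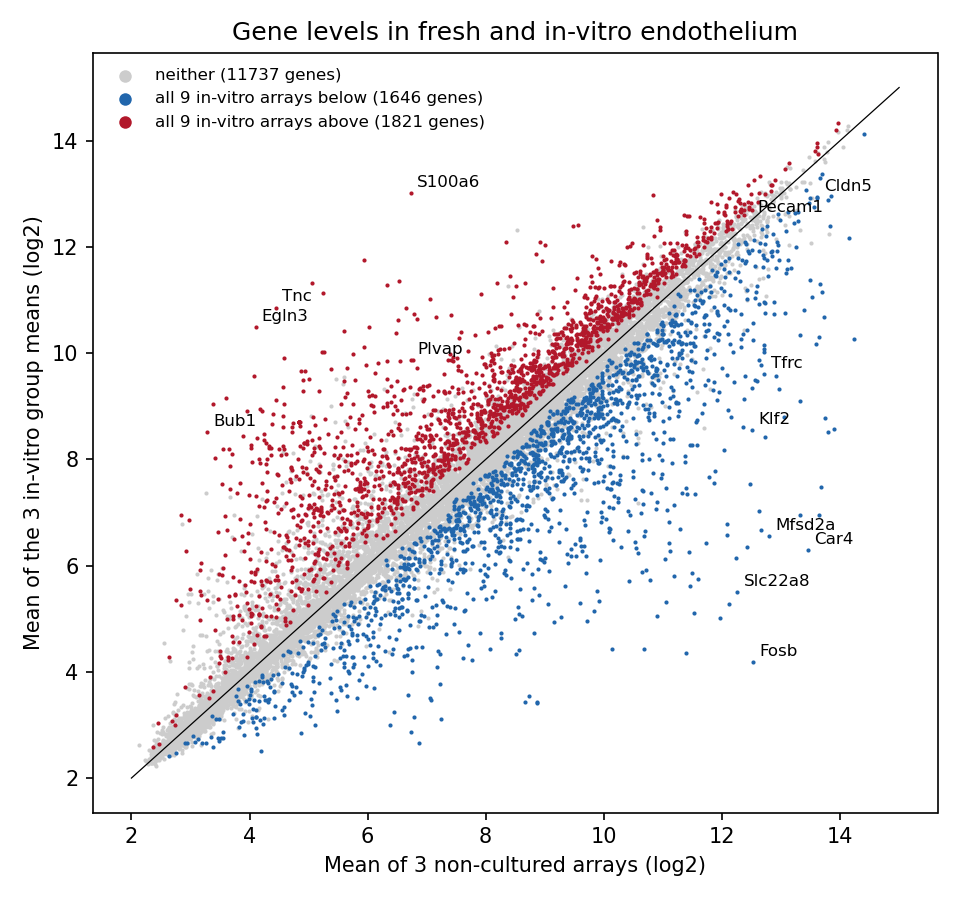
Each point is 1 of 15204 genes, with its mean over the 3 non-cultured arrays on the x axis and the mean of the 3 in-vitro group means on the y axis, both in log2 units; the line marks equal levels. Blue points are the 1646 genes with all 9 in-vitro arrays below, red points the 1821 with all 9 above; Fosb and Slc22a8 lie far below the line, S100a6 and Tnc far above it, and Pecam1 on it.

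A measurement that the rule did not use came from further probe sets of the same genes. Of 65 further probe sets with other values for lower members, 49 also had all 9 in-vitro arrays below, and of 59 for higher members, 42 had all 9 above; none lay on the opposite side. Such probe sets read the same RNA and may share probes. The transferrin receptor Tfrc, which takes iron-loaded transferrin into the brain endothelium, lay at 12.89, 12.68 and 12.59 on the fresh arrays and at 8.60, 9.84 and 10.39 (lowest, median, highest) in vitro. It fell by 3.12 (SE 0.13, adjusted p = 5.62e-09), and 3 Affymetrix control probe sets for its 5′, middle and 3′ parts gave -3.41, -3.72 and -3.54. For the mitochondrial enzyme Pcx, pyruvate carboxylase, which fell by 1.93 (SE 0.16), the 3′ control gave -1.84 and the 5′ control, with levels of 5.33 to 5.97 on all arrays, -0.29.

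The widest gap of all belonged to Fosb, a subunit of the AP-1 transcription factor. Its level was 12.60, 12.36 and 12.63 in fresh cells, 4.2, 3.84 and 4.94 in single-cultured cells, 3.89, 4.04 and 4.91 in co-cultured cells and 4.05, 3.70 and 4.09 in b.End5. Every in-vitro array lay at least 7.42 log2 units below the lowest fresh array, and the difference was -8.35 (SE 0.24, adjusted p = 3.85e-10). Next came Ptprr, a receptor-type tyrosine phosphatase, at 12.11 to 12.13 in fresh cells and 4.10, 5.51 and 5.84 (lowest, median, highest) in vitro. Spock2, a proteoglycan of the extracellular matrix, lay at 11.74 to 12.35 against 4.61, 5.04 and 5.48. Sgpp2, a sphingosine-1-phosphate phosphatase, lay at 11.20 to 11.49 against 3.70, 4.32 and 5.07. None of these 4 genes differed among the in-vitro sources by the F test with a range of at least 1 log2 unit. The organic anion transporter Slc22a8, the thiamine transporter Slc19a3, the lysolipid transporter Mfsd2a, the surface carbonic anhydrase Car4, the heat-shock genes Hspa1a and Hspa1b, Lmntd1 and Fam107a completed the 12 lower genes with the widest gaps, which ran from 7.42 down to 4.82.

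Among the higher genes the widest gaps were those of AA467197, at 5.03 to 5.08 in fresh cells and 10.51, 11.20 and 12.46 in vitro, and of the calcium-binding protein S100a6, at 6.43 to 7.03 against 12.19, 13.27 and 13.43. Egln3, a prolyl hydroxylase that marks hypoxia-inducible factors for destruction, lay at 4.26, 4.11 and 3.94 in fresh cells, 9.31, 9.68 and 9.60 in single-cultured cells, 10.19, 10.66 and 10.58 in co-cultured cells and 11.47, 11.22 and 11.71 in b.End5. It rose by 6.39 (SE 0.14, adjusted p = 1.28e-10), and its 3 in-vitro groups did not overlap each other either. The metalloproteinases Adam12 and Adam19 rose by 5.87 (SE 0.32) and 4.46 (SE 0.13), the uridine phosphorylase Upp1 by 5.81 (SE 0.20) and the chemokine Ccl2, which attracts monocytes, by 4.95 (SE 0.25). The chromatin protein Hmga2, at or under the no-target level on every fresh array and at 7.99 to 10.57 in vitro, was at least 31.5-fold higher in vitro. Plau, Ttc9, Slco3a1 and Birc5 completed the 12, with gaps from 5.42 down to 3.71.

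**Figure D2:**
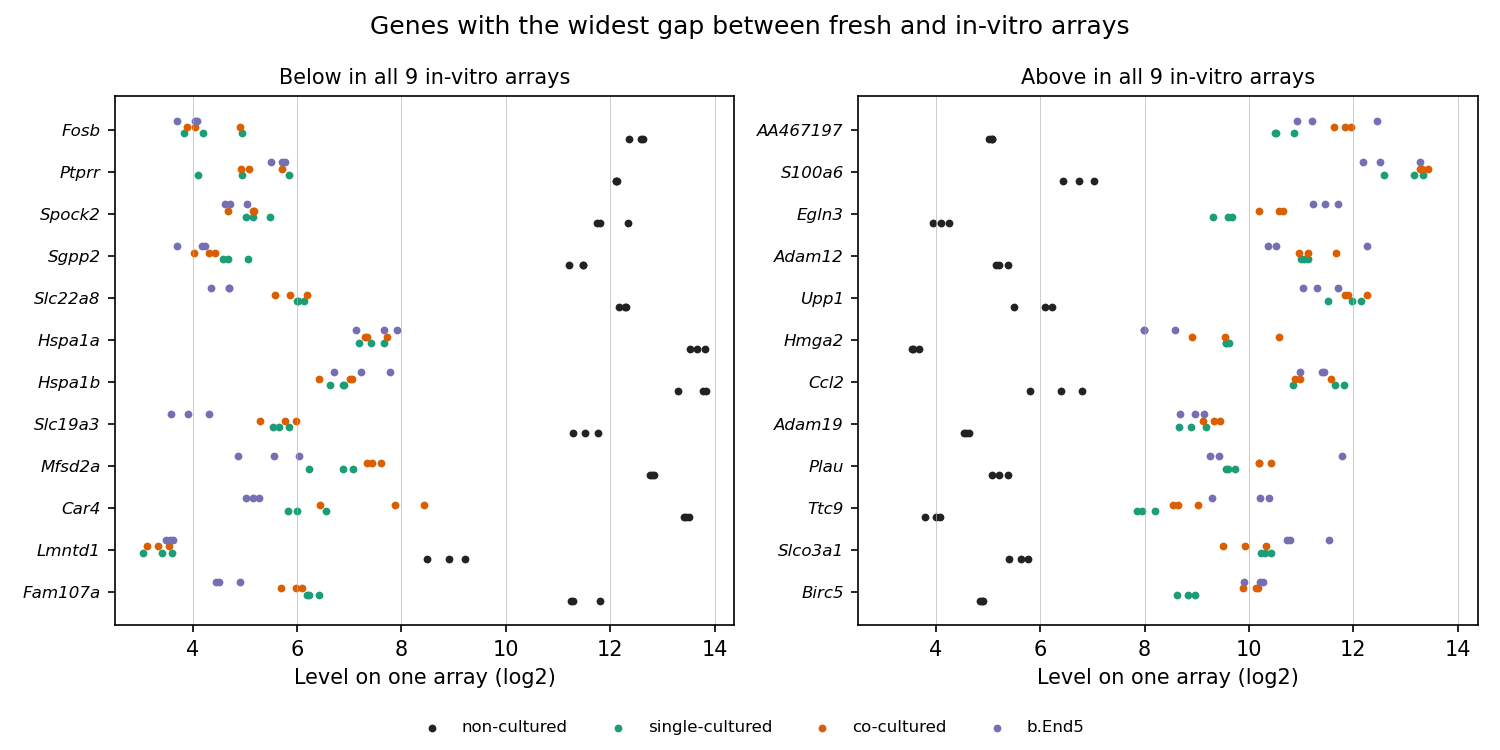
Each row is a gene and each point 1 array (x axis, log2 level), for the 12 lower (left) and 12 higher (right) called members with the widest gap; colours mark the 4 groups. For Fosb the 3 fresh points lie at 12.36 or above and the 9 in-vitro points at 4.94 or below, while for Egln3 the sources are also separated from each other.

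Gene lists were written from general knowledge, but with earlier results of these data known. Their shares, read beside those of all genes, are therefore a description and carry no test. Of 42 measured immediate early genes, 30 lay below in all 9 arrays (71.4%), as did 20 of 36 barrier solute carriers (55.6%), 17 of 32 flow-responsive and barrier transcription factors (53.1%) and 19 of 36 Wnt pathway genes (52.8%), against 10.8% of all genes. On the other side, 60 of 65 mitosis and DNA replication genes lay above in all 9 (92.3%), as did 21 of 36 amino acid response and one-carbon genes (58.3%) and 17 of 41 actin cytoskeleton genes (41.5%), against 12% of all genes. Counts for these lists without b.End5 2 were 30, 20, 17 and 21 below and 60, 21 and 17 above. Counts of list genes that fell or rose, given below, stand beside 6.46% and 7.45% of all genes.

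**Figure D3:**
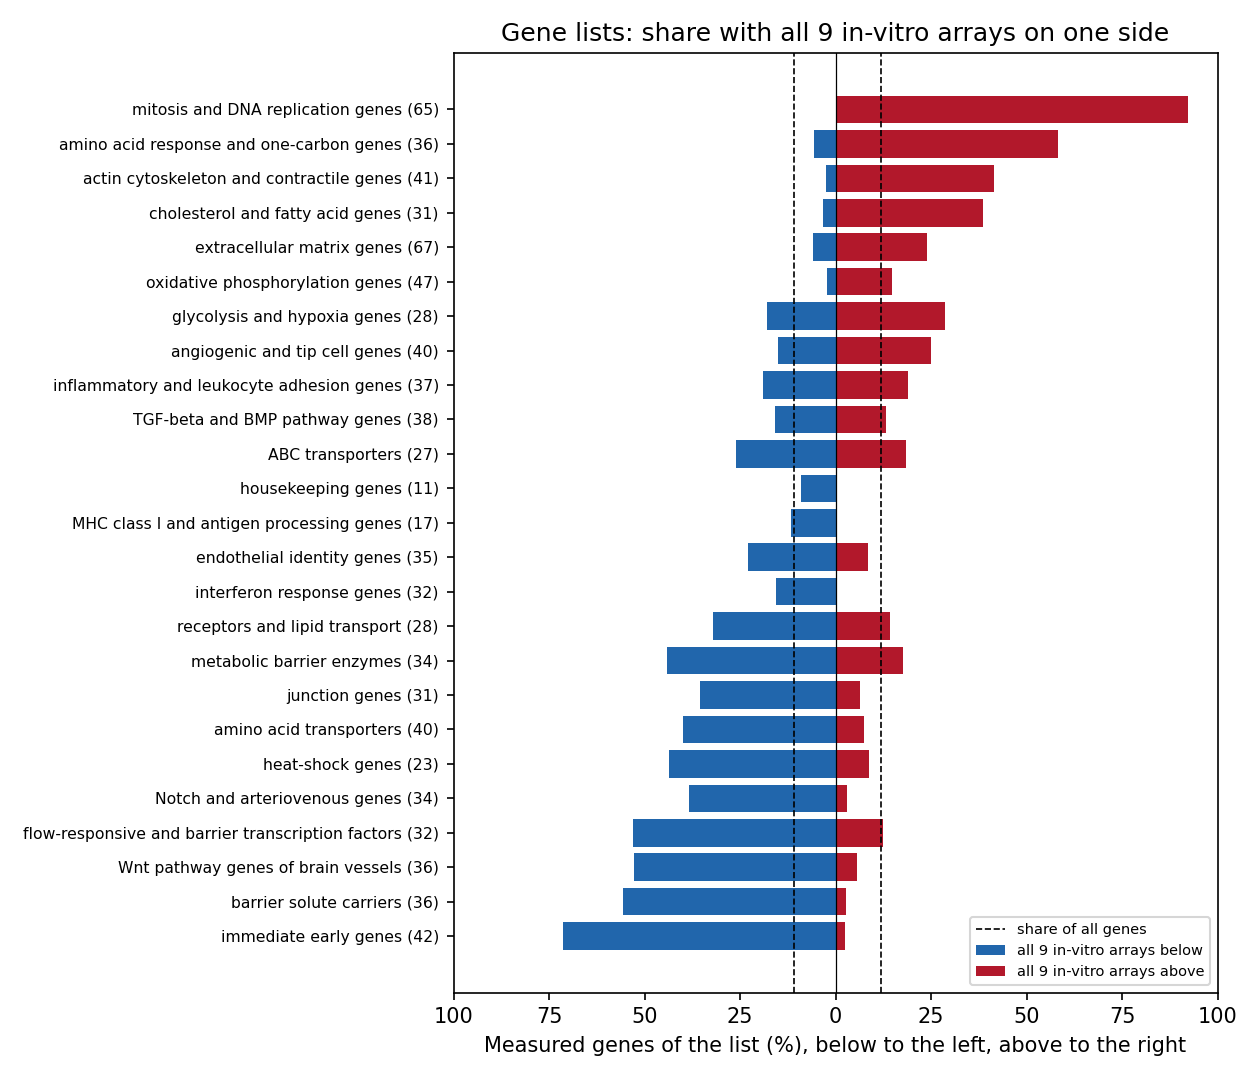
For each of 25 gene lists (number of measured genes in parentheses), bars give the percent of its genes with all 9 in-vitro arrays below (blue, left) or above (red, right) the 3 fresh arrays; dashed lines mark the shares of all genes, 10.8% and 12%. Immediate early genes reach 71.4% on the left and mitosis and DNA replication genes 92.3% on the right.

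Solute carriers of the barrier lay lower in vitro by a median of 1.08 log2 units: of 36 measured, 18 fell, 1 rose and 17 did not pass. Slc22a8, which clears organic anions from the brain, lay at 12.29, 12.31 and 12.18 in fresh cells, at 6.01, 6.14 and 6.01 in single-cultured cells, at 5.88, 6.18 and 5.57 in co-cultured cells and at 4.70, 4.71 and 4.35 in b.End5. It fell by 6.75 (SE 0.13, adjusted p = 9.86e-11), with b.End5 below every primary culture. Slc19a3 fell by 6.42 (SE 0.18), the thyroid hormone and organic anion transporter Slco1c1 by 5.29 (SE 0.13), the monocarboxylate transporter Slc16a1 by 3.70, and the iron exporter Slc40a1 by 1.75. The glucose transporter Slc2a1 (GLUT1) lay below in all 9 arrays, at 11.55 to 13.67 against 13.79 to 13.91, but its difference of -0.90 (SE 0.15, adjusted p = 0.000523) was under 2-fold, and it passed the threshold with cyclic loess (-1.04) and with arrays centred on their medians. The single riser was the sodium-potassium-chloride cotransporter Slc12a2 (1.14), which b.End5 2 kept from meeting the rule.

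Amino acid transporters went both ways, with 11 of 40 lower, 5 higher and 24 not passing, and 16 below and 3 above in all 9 arrays. Their median was -0.14 beside 0.02 for all genes, and 0.11 beside 0.27 with housekeeping centring. Slc7a5 (LAT1), the importer of large neutral amino acids, lay at 12.61, 12.41 and 12.73 in fresh cells and at 7.41, 10.01 and 10.51 (lowest, median, highest) in vitro, and its heavy chain Slc3a2 at 12.68 to 12.83 against 10.27 to 11.02. Both fell, by 3.12 (SE 0.37) and 1.97 (SE 0.10). The glutamine transporters Slc38a5 and Slc38a3 fell by 5.85 (SE 0.15) and 4.11 (SE 0.18), the taurine transporter Slc6a6 and the cationic amino acid transporter Slc7a1 each by 3.35. The glutamate transporters Slc1a1, Slc1a2 and Slc1a3 fell by 2.99, 1.5 and 1.71, and the latter pair are also astrocyte markers. The exchanger chain Slc7a7 was the only called riser with all 9 arrays above (1.38, SE 0.17), and it did not reach 2-fold without the b.End5 group (0.80).

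Receptors and lipid carriers included 11 genes that fell and 6 that rose among 28 (39.3% and 21.4%, against 6.46% and 7.45% of all genes). Mfsd2a, which carries lysophosphatidylcholine-bound docosahexaenoic acid and restrains vesicular transport, lay at 12.77 to 12.84 in fresh cells, 6.23 to 7.07 in single culture, 7.35 to 7.61 in co-culture and 4.88 to 6.04 in b.End5, a difference of -6.24 (SE 0.22, adjusted p = 1.8e-09). Plvap, a component of fenestral and caveolar diaphragms that barrier endothelium normally lacks, lay at 5.62, 6.99 and 7.57 in fresh cells, 7.69 to 9.49 in primary cultures and 11.88 to 12.32 in b.End5. It rose by 3.13 (SE 0.42), with only 0.12 between the highest fresh and the lowest in-vitro array. Apolipoprotein D (Apod), the insulin-like growth factor receptor Igf1r and the leptin receptor Lepr fell by 3.94, 3.19 and 2.80, while the fatty acid binding protein Fabp4 and the caveolar protein Cavin3 rose by 3.59 and 1.83. Cav1, the main caveolar coat protein, had a difference of 0.29 and did not pass.

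Among the ABC efflux pumps, the P-glycoprotein genes of the mouse differed in direction. Abcb1a lay at 13.01, 12.89 and 13.00 in fresh cells, 10.38 to 10.89 in primary cultures and 7.48, 5.39 and 7.35 in b.End5, and fell by 3.64 (SE 0.34, adjusted p = 5.49e-06). Abcb1b lay at 4.88, 5.12 and 5.54 in fresh cells, 8.38 to 9.29 in primary cultures and 7.84, 5.72 and 7.83 in b.End5, and rose by 3.07 (SE 0.40, adjusted p = 8.47e-05). The groups overlapped for neither gene, although b.End5 2 brought Abcb1b within 0.18 of the fresh arrays. Abcc6 and Abcc4 fell by 3.55 and 1.59 and the breast cancer resistance protein Abcg2 by 1.01, while the multidrug resistance proteins Abcc1 and Abcc3 rose, Abcc1 by 2.35 and Abcc3 at least 10.4-fold. Over the 27 genes, 5 fell (18.5%, against 6.46% of all genes), 4 rose (14.8%, against 7.45%) and 18 did not pass.

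Of 34 enzymes of the metabolic barrier, 15 fell and 6 rose. Aromatic L-amino acid decarboxylase (Ddc), which degrades L-DOPA at the capillary wall, lay at 10.60 to 10.77 in fresh cells and 7.79 to 8.27 in b.End5. In the primary cultures it lay at 2.34 to 2.92, under the no-target level, which limits the precision of its differences. Its difference was -6.24 (SE 0.15), and b.End5 lay 5.32 (SE 0.16) above the primary cultures. Car4 fell by 7.17 (SE 0.32), the alcohol dehydrogenase Adh1 by 5.85 (SE 0.37), the retinaldehyde dehydrogenase Aldh1a1 to the no-target level on all 9 arrays (at least 25-fold), the alkaline phosphatase Alpl by 4.71 and the monoamine oxidases Maob and Maoa by 4.24 and 1.81. All 6 that rose had 9 arrays above. They were the xenobiotic-metabolising enzymes Cyp1a1 (3.06, SE 0.36), Cyp1b1 (at least 3.14-fold), Nqo1 (2.63, SE 0.19) and Ugt1a6a (3.87, SE 0.34), whose probe values are shared with other Ugt1a genes, the heme oxygenase Hmox1 (2.08) and the sterol enzyme Cyp51.

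Junction genes were less uniform, with 8 of 31 lower, 2 higher and 21 not passing. Claudin-5 (Cldn5), the main tight junction claudin of brain endothelium, lay at 13.66, 13.62 and 13.56 in fresh cells and at 12.48, 12.96 and 13.35 (lowest, median, highest) in vitro. It lay below in all 9 arrays, by 0.68 (SE 0.12, adjusted p = 0.000818), which is under 2-fold. Occludin (Ocln) fell by 2.81 (SE 0.44), from 12.27 to 12.63 in fresh cells to 11.01 to 11.83 in primary cultures and 6.79, 4.31 and 7.06 in b.End5. Lsr (angulin-1), which seals the corners where 3 cells meet, fell by 4.10 (SE 0.15) and the junctional adhesion molecule Jam2 by 2.81 (SE 0.26). Jam3 and the nectin Nectin2 rose by 1.5 and 2.99, with a difference of 0.90 for Jam3 without the b.End5 group. Without that group 5 junction genes fell, 2 rose and the median was -0.08 instead of -0.44.

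Of 35 genes that define endothelium as such, 5 fell (14.3%, against 6.46% of all genes), 1 rose (2.86%, against 7.45%) and 29 did not pass. In all 9 arrays 8 lay below (22.9%, against 10.8% of all genes) and 3 above (8.57%, against 12%). The kinase Bmx and the transcription factor Sox17, both of arterial endothelium, fell by 3.26 (SE 0.27) and 2.80 (SE 0.31), the VEGF receptor Flt1 by 1.69 (SE 0.17) and the phosphatase Ptprb by 1.58. Clec14a rose by 1.37 (SE 0.12). Von Willebrand factor (Vwf) lay on opposite sides of the fresh level: it was at 12.56 to 12.78 in fresh cells, above that in all 6 primary arrays (13.18 to 13.55) and at 8.07, 5.51 and 8.68 in b.End5, so that its overall difference of -1.28 did not pass (adjusted p = 0.0556). The Tie2 receptor Tek (-0.81) lay below in all 9 arrays, and Kdr, the main VEGF receptor (-0.55), met neither criterion.

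Of 36 Wnt pathway genes, 13 fell, 1 rose and 22 did not pass. Axin2, a negative feedback target of the pathway, lay at 11.57, 11.45 and 11.30 in fresh cells, 6.65, 6.33 and 6.58 in single-cultured cells, 5.73, 5.80 and 6.13 in co-cultured cells and 6.61, 5.74 and 6.69 in b.End5. It fell by 5.19 (SE 0.18, adjusted p = 1.85e-09), and the sources did not differ by the F test (adjusted p = 0.103). Apcdd1 fell by 5.58 (SE 0.25), Tnfrsf19 (Troy) by 4.77 (SE 0.23), the secreted Wnt inhibitor Notum by 4.58 (SE 0.17), the transcription factors Lef1 and Tcf7 by 4.30 and 3.45 and the feedback inhibitor Nkd1 by 3.12. The riser was cyclin D1 (Ccnd1, 1.53, SE 0.15). The receptor components Fzd6, Lrp6 and Adgra2 lay below in all 9 arrays with differences between -0.97 and -0.61, and Fzd4 (-0.42) and Lrp5 (-0.30) did not. Another receptor component, Reck, fell by 2.33 (SE 0.14), with all 9 arrays below.

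Among 32 flow-responsive and barrier transcription factors, 15 fell and 2 rose. The shear-stress factor Klf2 lay at 12.10, 12.72 and 12.70 in fresh cells, 6.58, 7.51 and 7.36 in single-cultured cells, 7.03, 7.54 and 8.63 in co-cultured cells and 10.80, 11.20 and 10.30 in b.End5. All 9 in-vitro arrays lay below the fresh ones, by 3.96 on average (SE 0.32), with b.End5 3.33 (SE 0.34) above the primary cultures. Its relative Klf4 showed the same order, at 12.89 to 13.30, 7.68 to 8.56 in primary cultures and at most 10.79 in b.End5 (difference -4.26, SE 0.20). Foxq1 and Foxf2, factors enriched in brain vessels, fell by 2.74 and 2.31, the T-box factor Tbx3 by 3.84, and the glucocorticoid-induced Tsc22d3 and Per1 by 2.85 and 2.33. For Foxf2 the means were 11.71 in fresh, 10.87 in single-cultured, 10.74 in co-cultured and 6.58 in b.End5 cells, so both primary cultures lay under 2-fold from fresh cells. The 2 risers were Foxc2 (3.58, SE 0.35) and Ahr (2.17, SE 0.14), a receptor for dioxins and related ligands. Of 34 Notch and arteriovenous genes, 16 fell and 3 rose, among them the arterial Gkn3 (-5.63), the ligand Jag2 (-2.49) and the target Hes1 (-1.41), while Notch1 (-0.27), Notch4 (0.31) and the arterial ligand Efnb2 (0.25) did not pass.

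Immediate early genes, which cells transcribe within minutes of stimulation, had a median of -1.77: 27 of 42 fell, 2 rose and 13 did not pass. The median was -1.12 for single-cultured, -1.16 for co-cultured and -3.06 for b.End5 cells, and -1.09 without the b.End5 group, when 23 fell. Fos lay at 13.78, 13.84 and 14.06 in fresh cells, 8.27 to 9.69 in primary cultures and 7.2 to 7.90 in b.End5, and fell by 5.32 (SE 0.24, adjusted p = 1.42e-08). The orphan nuclear receptors Nr4a1 and Nr4a2 fell by 6.0 and 3.96, Nr4a3 at least 4.66-fold, the stress factor Atf3 by 4.23, Egr1 by 3.05, Jun by 2.57 and Socs3 by 2.82. Myc rose by 1.67 (SE 0.15), with all 9 arrays above. Of 23 heat-shock genes, 7 fell and 1 rose: the inducible HSP70 genes Hspa1a and Hspa1b, near-identical copies that probes may not tell apart, lay at 13.29 to 13.84 in fresh cells and 6.43 to 7.92 in vitro. The small heat-shock protein Hspb1 and the co-chaperone Dnajb1 fell by 3.35 and 2.44, while the constitutive Hspa8 (-0.18) and the endoplasmic reticulum chaperone Hspa5 (0.02) did not pass.

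Promoters of these genes are shown because many immediate early genes are known to answer cyclic AMP signals through the response element TGACGTCA. In RefSeq promoters of GRCm38.p6 (250 bases before to 50 after a start), 30 immediate early members had 39 promoters for 26 genes, and 3 held TGACGTCA on either strand (7.69%), against 2.57% of all 15260 promoters of measured genes, 3.43% for all lower and 2.02% for all higher members. The AP-1 element TGACTCA was in 2.56% of them, against 4.5% of all. A match is a run of letters, not a site shown to be used. The promoters of Dusp1, a phosphatase that switches off MAP kinases, and Btg2, an antiproliferative gene, carry it in capitals, with CCAAT in capitals too where present:
Dusp1 (chr17:26508423-26508722, minus strand): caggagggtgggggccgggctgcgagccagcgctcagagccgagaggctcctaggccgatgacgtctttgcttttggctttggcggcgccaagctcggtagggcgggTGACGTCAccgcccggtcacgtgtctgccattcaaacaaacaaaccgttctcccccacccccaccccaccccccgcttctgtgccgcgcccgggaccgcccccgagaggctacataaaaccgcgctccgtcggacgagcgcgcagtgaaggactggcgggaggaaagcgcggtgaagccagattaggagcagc
Btg2 (chr1:134079106-134079405, minus strand): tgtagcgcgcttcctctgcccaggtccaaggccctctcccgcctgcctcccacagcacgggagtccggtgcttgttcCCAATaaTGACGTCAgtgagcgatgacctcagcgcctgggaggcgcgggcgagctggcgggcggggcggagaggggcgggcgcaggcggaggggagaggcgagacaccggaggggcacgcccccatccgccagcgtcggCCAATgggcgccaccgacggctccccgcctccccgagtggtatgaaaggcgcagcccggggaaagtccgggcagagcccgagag
Dusp1 lay at 13.77, 13.81 and 13.93 in fresh cells and 11.85, 12.48 and 12.82 (lowest, median, highest) in vitro, and fell by 1.45 (SE 0.11). Btg2 lay at 11.80, 11.86 and 12.19 against 8.65, 9.34 and 9.71, and fell by 2.67 (SE 0.22). Neither gene's groups overlapped.

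Genes of the cell cycle showed the most uniform rise of the 25 lists: 61 of 65 mitosis and DNA replication genes rose, 4 did not pass, and the median was 2.16. Bub1, a kinase of the spindle checkpoint, lay at 3.14, 3.02 and 3.68 in fresh cells, under the no-target level, and at 7.34, 7.87 and 7.43 in single-cultured, 9.10, 9.25 and 8.90 in co-cultured and 8.97, 8.83 and 8.93 in b.End5 cells. It was at least 20.3-fold higher in vitro (adjusted p = 4.01e-10). Birc5 (survivin) rose by 4.79 (SE 0.11), the cytokinesis protein Anln by 4.77 (SE 0.24), topoisomerase Top2a by 4.76 and the kinase Cdk1 by 3.52. Genes of replication licensing ranged from Mcm7 (1.37) and Mcm3 (1.83) to Cdc6 (3.38), the mitotic kinase Plk1 rose by 1.01, and the members Smc4 (0.57) and Mcm6 (0.70) stayed under 2-fold. The co-cultured level was above the single-cultured one, in a contrast that gives the fresh arrays no weight, for 32 of the 65, while 1.19% of all genes differed between these cultures in either direction. Bub1 differed by 1.54 (adjusted p = 0.00266) and Birc5 by 1.26 (adjusted p = 0.00127).

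The CCAAT box and the E2F element TTTCCCGC are known features of cell cycle promoters. Of 56 promoters of 49 mitosis and replication members, 37 held CCAAT or its reverse ATTGG (66.1%), against 37.4% of all promoters and 39.3% of those of all higher members. TTTCCCGC or its reverse GCGGGAAA was in 4 of the 56 (7.14%), against 1.63% of all. The promoters of Bub1 and of the replicative helicase subunit Mcm3 are shown with these letters in capitals, the first with CCAAT boxes alone and the second with both elements:
Bub1 (chr2:127831810-127832109, minus strand): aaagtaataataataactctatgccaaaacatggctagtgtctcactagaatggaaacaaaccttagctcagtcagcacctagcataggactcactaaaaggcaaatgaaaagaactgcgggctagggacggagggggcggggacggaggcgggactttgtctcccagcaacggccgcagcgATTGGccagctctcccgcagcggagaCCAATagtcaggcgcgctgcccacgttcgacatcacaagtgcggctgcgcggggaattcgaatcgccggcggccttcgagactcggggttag
Mcm3 (chr1:20820263-20820562, minus strand): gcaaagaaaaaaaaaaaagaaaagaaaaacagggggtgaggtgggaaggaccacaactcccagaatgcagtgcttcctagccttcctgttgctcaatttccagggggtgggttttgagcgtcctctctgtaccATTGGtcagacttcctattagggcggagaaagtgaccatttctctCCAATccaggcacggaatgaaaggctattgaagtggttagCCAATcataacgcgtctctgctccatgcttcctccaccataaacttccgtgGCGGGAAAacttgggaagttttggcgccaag
Mcm3 lay at 8.38, 7.97 and 8.07 in fresh cells, 9.20 to 9.63 in single-cultured, 9.95 to 10.29 in co-cultured and 10.20 to 10.66 in b.End5 cells.

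Of 67 extracellular matrix genes measured, 31 rose, 6 fell and 30 did not pass, and 34 were lower in b.End5 than in the primary cultures. The median difference from fresh cells was 1.40 for single-cultured, 1.67 for co-cultured and 0.09 for b.End5 cells. In all 9 arrays 16 of the 67 lay above (23.9%, against 12% of all genes), 15 of them called. Without b.End5 2 the count was 22, and without the b.End5 group 46. With fewer arrays to lie on one side, the number above over all 15204 genes also went from 1821 to 2024 and 2900. Tenascin C (Tnc), a matrix glycoprotein of remodelling tissue, lay at 4.57, 4.4 and 4.35 in fresh cells, 12.63 to 13.17 in the 6 primary arrays and 6.81, 7.13 and 6.49 in b.End5, a difference of 6.42 (SE 0.14, adjusted p = 1.28e-10). The collagens Col15a1 and Col8a1 rose by 4.83 (SE 0.69) and 4.07, the metalloproteinase inhibitor Timp1 by 4.32 (SE 0.25) and the protease Adamts4 by 3.96. The basement membrane genes Lamb2 and Agrn fell by 2.19 (SE 0.13) and 1.48 (SE 0.20), with all 9 arrays below, and Col4a1 (0.32) and Col4a2 (0.19) did not pass. Another laminin chain, Lamb1, rose by 3.13 (SE 0.37), with all 9 arrays above. Summed levels of 12 smooth muscle markers were also highest in the primary cultures, and their part in these values was not tested.

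Of 41 actin and motility genes, 16 rose, 24 did not pass and 1, the membrane linker Ezr (-1.08), fell. The annexin Anxa1 rose by 3.76 (SE 0.15), the actin-bundling protein Fscn1 by 2.52 (SE 0.14) and S100a4 by 3.19 (SE 0.87, adjusted p = 0.0123), the last by 2.63 without b.End5 2 and not past the threshold without non-cultured 1 (adjusted p = 0.0553). Actb (0.13) and Vim (0.34) did not pass. Of 40 angiogenic and tip cell genes, 16 rose and 7 fell: the urokinase Plau, the adhesion molecule Mcam and the growth factor Vegfa rose by 4.79, 3.18 and 1.98, and Cxcl12, Pdgfb and Hbegf fell by 2.37, 2.19 and 1.64. Without the b.End5 group 17 rose and 4 fell. Among 38 TGF-beta and BMP pathway genes 8 rose and 7 fell (21.1% and 18.4%, against 7.45% and 6.46% of all genes). Their median was -0.16 beside 0.02 for all genes. With housekeeping centring 11 rose and 3 fell, and the median was 0.09 beside 0.27 for all genes. Without the b.End5 group 10 rose and 3 fell, and the median was 0.13 beside -0.02. The activin subunit Inhba lay at 4.31 to 5.06 in fresh cells, 9.76 to 11.78 in primary cultures and 5.93, 12.26 and 6.01 in b.End5, and rose by 5.32 (SE 1.07), or by 4.62 without b.End5 2.

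Of 37 inflammatory genes 9 fell and 9 rose (24.3% each, against 6.46% and 7.45% of all genes). Their median was 0.60 for single-cultured, 0.57 for co-cultured and -0.39 for b.End5 cells. In all 9 arrays 7 lay below and 7 above (18.9% each, against 10.8% and 12% of all genes). Under the looser rule without the b.End5 group it was 9 and 16. The NF-kappaB regulators Nfkbiz, Nfkbia and Tnfaip3 fell by 2.73, 1.79 and 1.71 and the neutrophil chemokine Cxcl1 by 1.4. Cxcl2, another of these, fell (-1.95, SE 0.58), but not past the threshold without non-cultured 2 or 3 (adjusted p = 0.0745 and 0.0812). Ccl2 and Tnfaip2 rose by 4.95 and 4.51, Il6 at least 2.55-fold and the endothelial selectins Sele and Selp, which capture rolling leukocytes, by 2.92 and 2.74. Sele lay at 6.33, 6.20 and 5.75 in fresh cells, 10.06, 10.48 and 11.07 in single-cultured, 8.86, 7.65 and 7.82 in co-cultured and 8.43, 8.27 and 8.47 in b.End5 cells, and the co-cultured mean was 2.43 below the single-cultured one (adjusted p = 0.00304). Microglia and macrophage markers averaged 6.11 to 6.82 in fresh cells and 7.46 to 8.67 in the primary cultures, and their part in these values was not tested.

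Interferon response genes lay lower in the primary cultures and near the fresh level in b.End5. Of 32 measured, 10 fell and 22 did not pass, and the medians were -1.29 for single-cultured, -1.27 for co-cultured and -0.02 for b.End5 cells. In all 9 arrays 5 lay below (15.6%, against 10.8% of all genes). Without the b.End5 group 29 did and 20 fell. With fewer arrays to lie on one side, the number below over all 15204 genes also went from 1646 to 2533. Without b.End5 2, 9 fell and 1 rose. The regulators Irf7 and Irf9 fell by 2.87 (SE 0.42) and 1.43 (SE 0.16), b.End5 lying 2.37 and 0.88 above the primary cultures, and the guanylate-binding protein Gbp3 by 1.53 (SE 0.51), a call lost without any 1 of 6 arrays, with the largest adjusted p, 0.122, without non-cultured 3. Of 17 genes of MHC class I and antigen processing, 2 fell (11.8%, against 6.46% of all genes), H2-T24 and H2-T23, and neither met the rule.

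Of 36 amino acid response and one-carbon genes 12 rose and 1 fell: the mitochondrial folate enzyme Mthfd2 lay at 5.36 to 5.92 in fresh cells and 8.54, 9.54 and 10.22 in vitro (difference 3.87, SE 0.27), and the serine synthesis enzyme Psat1 and the asparagine synthetase Asns rose by 2.61 and 1.90. Ddit3 (CHOP) fell by 1.06 (SE 0.12), and Atf4 (-0.69) lay below in all 9 arrays. Of 31 cholesterol and fatty acid genes 7 rose, led by the desaturase Fads2 (2.88, SE 0.28) and the squalene epoxidase Sqle (2.08, SE 0.14), and 1, the elongase Elovl7, fell by 1.99, with a difference of -0.96 without the b.End5 group. In the glycolysis and hypoxia list Egln3, Vldlr and the collagen hydroxylase P4ha1 rose by 6.39, 4.29 and 1.85 and Pdk4 and the hypoxia factor Epas1 fell by 2.71 and 1.51, with 6 of 28 higher and 5 lower, or 10 and 3 with housekeeping centring and 7 and 2 without the b.End5 group. Of 47 oxidative phosphorylation genes 7 lay above in all 9 arrays (14.9%, against 12% of all genes) and 1 below. The 7 became 22 with housekeeping centring and 2 with cyclic loess or median centring.

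The in-vitro sources were compared with each other in the same model, in contrasts that give the fresh arrays no weight. They differed by the F test with a range of at least 1 log2 unit for 2452 genes, 16.1% of all. Among the lower members 345 did (21%) and among the higher 398 (21.9%). Membership was set on these same in-vitro arrays, so the rule itself shapes the shares among members. They are given as a description, and their distance from the shares of all genes carries no test. In the contrast of b.End5 with the primary cultures 8% of all genes were lower in b.End5 and 5.51% higher. Of the lower members 271 (16.5%) were lower still in b.End5 and 42 (2.55%) higher in b.End5 than in the primary cultures; of the higher members 182 (9.99%) were higher still in b.End5 and 67 (3.68%) lower than in them. The median difference from fresh cells was -0.91 in single-cultured, -0.97 in co-cultured and -1.08 in b.End5 cells for the lower members, and 0.75, 0.92 and 0.95 for the higher. b.End5 lay farthest from the fresh mean for 845 lower and 920 higher members, co-cultured cells for 512 and 656 and single-cultured cells for 289 and 245. Co-cultured and single-cultured cells differed for 13 lower members (0.79%) and 94 higher members (5.16%), beside the 1.19% of all genes.

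Members with a difference of at least 4-fold differed in how evenly the sources moved. Notum was the most even of the lower genes, at 9.46 to 10.30 in fresh cells and group means of 5.38, 5.31 and 5.32 in vitro. The synaptic gene Snap25, the nuclear receptor Nr4a3 and the mitochondrial polymerase subunit Polg2 were next, and among the higher genes Clca2, Fscn1, Fads2 and the neuronal cytoskeleton regulator Dpysl3. Of the 4 least even lower genes, 3 were organic anion transporters. Slco1a4 lay at 13.70 to 13.82 in fresh cells, 9.77 to 12.16 in the primary cultures and 3.36 to 3.39, under the no-target level, in b.End5. Slco1c1 had 13.71 to 13.87, 10.16 to 11.11 and 3.96 to 4.46, and Slco2b1 means of 12.51, 11.35, 11.61 and 5.07 in fresh, single-cultured, co-cultured and b.End5 cells. Of the higher genes, the endothelin receptor Ednrb lay at 4.75 to 5.43 in fresh cells, 6.06 to 6.52 in single-cultured, 7.84, 10.30 and 11.36 in co-cultured and 11.36 to 11.95 in b.End5 cells, and Tnc and Ankrd1 lay highest in the primary cultures. The gluconeogenic enzyme Fbp1 lay above the no-target level in b.End5 alone, where its mean was 10.28. Its means of 3.71 and 3.78 in the primary cultures and 3.16 in fresh cells came from arrays under that level.

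**Figure D4:**
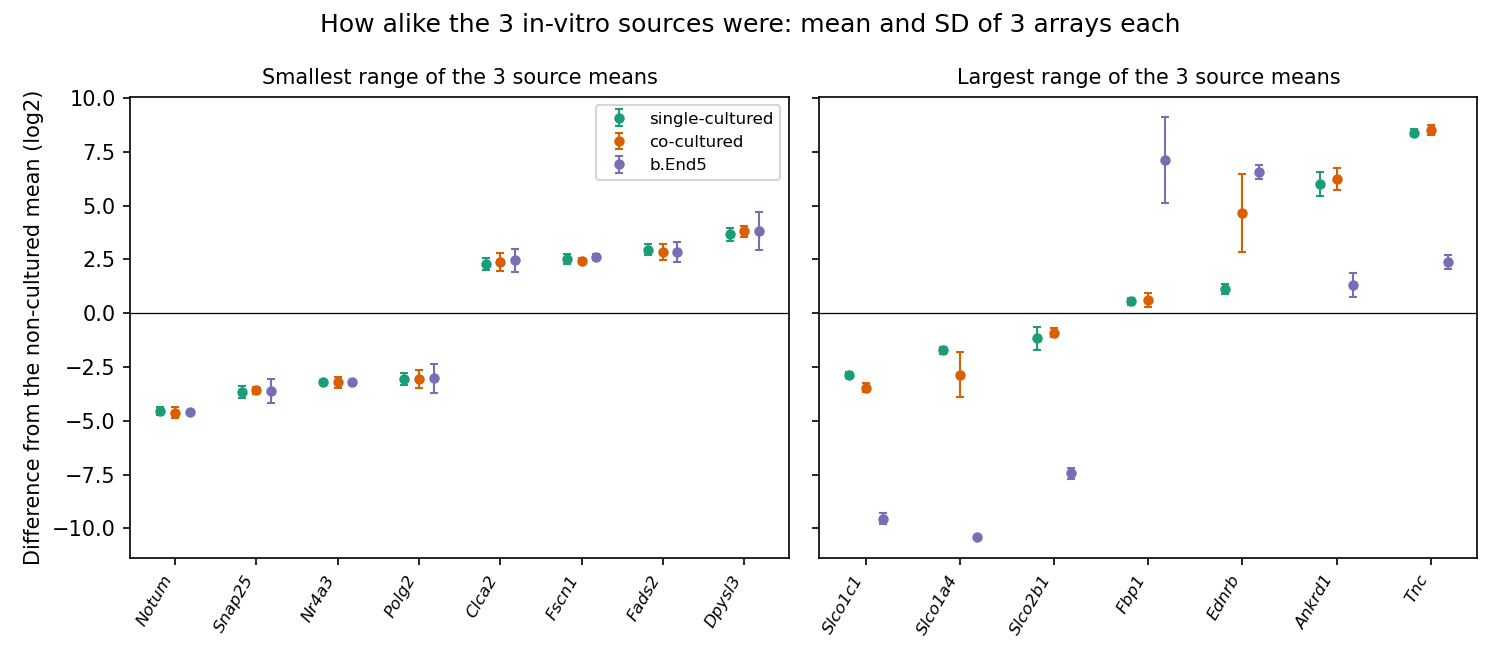
Points give the difference of each in-vitro group mean from the non-cultured mean (y axis, log2) with the SD of 3 arrays, for the 4 lower and 4 higher called members whose source means have the smallest range (left) and for 3 lower and 4 higher of those with the largest (right). The 3 sources coincide for Notum near -4.58, while for Slco1a4 b.End5 lies far below both primary cultures.

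Some genes passed the test without meeting the rule, 145 lower and 340 higher. The rule was broken by b.End5 arrays alone for 45 and 242 of them and by primary arrays alone for 100 and 92, and by the single array b.End5 2 for 8 and 55. The largest such falls were those of Ttr (-3.42, SE 0.57), a thyroid hormone carrier of the choroid plexus, and Mgp (-3.10, SE 0.33), an inhibitor of calcification, both of which lost the call without the b.End5 group. The death receptor Fas fell by 2.49 (SE 0.31): it lay at 9.39 to 10.03 in fresh cells, 4.97 to 6.57 in primary cultures and 10.22 to 10.37 in b.End5. The largest such rises were those of the macrophage elastase Mmp12 (at least 9.12-fold), the matrix proteins Thbs1 (4.05, SE 0.16) and Spp1 (3.94, SE 0.37). Thbs1 lay at 5.15 to 5.64 in fresh cells, 11.44 to 12.11 in primary cultures and 4.38 to 4.90 in b.End5.

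At the low end of the scale, 106 lower members lay at or under the no-target level on every in-vitro array, and 44 of them above it on every fresh array. Lmntd1, Aldh1a1, Tecrl and Rhpn2 were at least 25.2, 25, 21.8 and 22.9 times lower in vitro, and Aldh1a7 and Vstm2b at least 8.12 and 8.07 times. Of the higher members 76 lay at or under that level on every fresh array, 36 of them above it on every in-vitro array. Besides Hmga2 and Bub1 these included the ephrin receptor Ephb1 (at least 29.3-fold), Ttc9 (26.6), the midbody protein Cep55 (16.2) and Ankrd1 (16.2).

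Markers of other brain cells were read on every array. The mean of 24 microglia and macrophage markers was 6.11 to 6.82 in fresh cells, 7.46 to 8.16 in single-cultured, 7.5 to 8.67 in co-cultured and 4.99 to 5.18 in b.End5 cells, where P2ry12, Itgam, Ptprc, Cd163 and Ctss were at or under the no-target level. In the test 8 of them rose and 1 fell, or 15 and 1 without the b.End5 group, and none lay above in all 9 arrays. Macrophages also express Spp1, Mmp12 and Ccl2, and the part of such cells in those values was not tested. Ccl2 lay at 10.98 to 11.43 in b.End5, where these 5 markers were at or under the no-target level. Pericyte markers had means of 7.21 to 7.67, 6.19 to 6.56, 6.96 to 7.58 and 4.92 to 5.21 in the same order. Of 19 measured, 7 fell in all 9 arrays, led by Rgs5 (-5.74, SE 0.17), Vtn (-4.34, SE 0.35) and Atp13a5 (at least 4.48-fold lower), and Mcam rose. The other 11 did not pass. Among them Pdgfrb had means of 8.39 in fresh, 8.48 in single-cultured, 9.64 in co-cultured and 4.59 in b.End5 cells. The median difference over the 19 was -0.35 for single-cultured, 0.26 for co-cultured and -1.77 for b.End5 cells.

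Blood cell markers averaged 5.94 to 6.06 on the fresh arrays and 4.95 to 5.27 in vitro, and 6 of 15 fell in all 9 arrays, among them the erythroid Alas2 (-3.72), the platelet Ppbp (-3.35) and the B cell Ms4a1 (at least 1.85-fold lower). These 6 were all that fell, 40% against 6.46% of all genes. The platelet marker Pf4 rose by 1.62 (adjusted p = 0.014), with overlapping groups, and the platelet markers Itga2b (-0.55) and Gp9 (-0.29) did not pass. Astrocyte markers averaged 5.65 to 5.71 on the fresh arrays and 5.08 to 5.49 in vitro. Of 17 measured, 4 fell (23.5%, against 6.46% of all genes), Sox9, Slc1a3, Slc1a2 and Aldoc, the last not past 2-fold without non-cultured 3 (-0.94). Aqp4, Gjb6, Ntsr2 and Bmpr1b were at or under the no-target level in fresh cells. Of 20 neuron markers 3 fell in all 9 arrays, Snap25, Stmn2 and Gad1, and 2 rose with overlapping groups, Tubb3 (2.31) and Eno2 (1.28). These were all that fell or rose, 15% and 10% against 6.46% and 7.45% of all genes. The neurofilament genes Nefl and Nefm did not pass, and lay at 9.26, 12.97 and 9.53 and at 6.76, 12.17 and 6.20 on the b.End5 arrays, highest on b.End5 2. Of 17 oligodendrocyte markers 2 fell (11.8%, against 6.46% of all genes), Mal (-2.68, SE 0.73), in all 9 arrays, and Mbp (-1.81, SE 0.49). The median over the 17 was -0.07, and 11.8% of them lay below in all 9 arrays, near the 10.8% of all genes. Fibroblast markers averaged 5.45 to 5.87 in fresh cells and 4.95 to 6.68 in vitro, with Foxc1 (-2.07) the one called fall in all 9 arrays. Igf2 also fell (-1.25), and the fibrillar collagens Col1a1 and Col3a1 rose by 1.89 and 1.21, with co-cultured means of 10.22 and 11.18 against 6.05 and 7.08 in fresh cells. Smooth muscle markers averaged 6.42 to 6.93, 7.77 to 8.14, 7.88 to 8.43 and 6.24 to 6.37 in the 4 groups. The part of such cells in the falls and rises above was not tested.

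**Figure D5:**
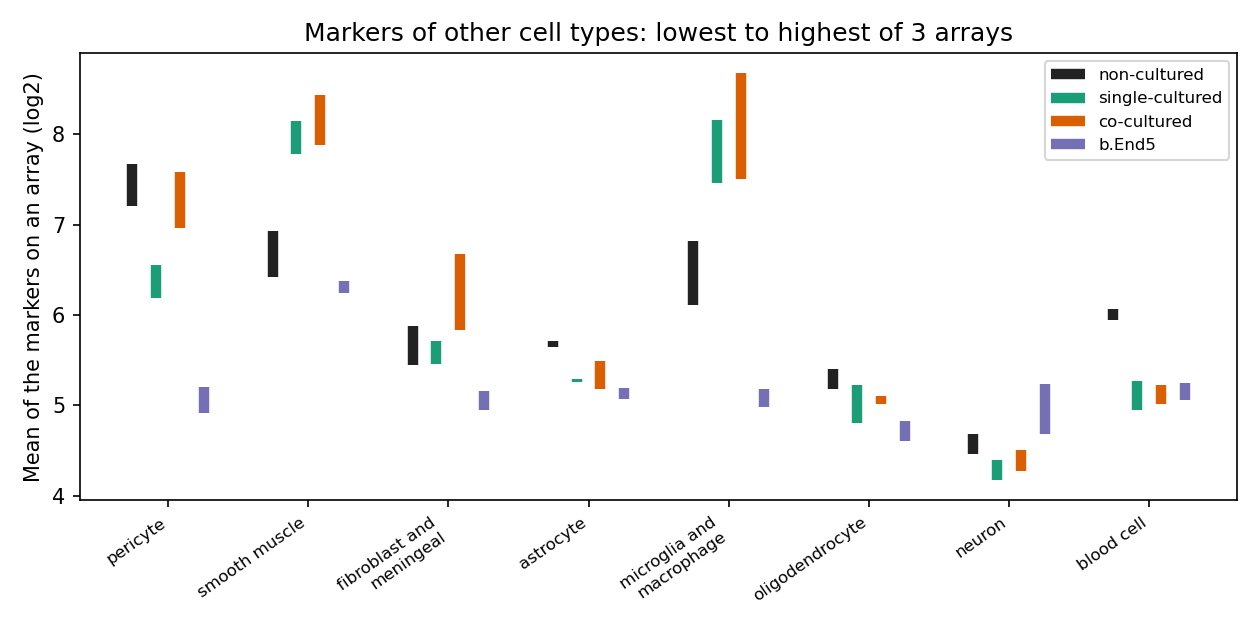
For each list of markers of other cell types, a bar spans the lowest to the highest of the 3 arrays of a group (y axis, mean log2 level of the markers on an array). Microglia and macrophage markers are highest in the primary cultures and lowest in b.End5, while blood cell markers are highest in the fresh cells (5.94 to 6.06).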

How the data were processed

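The authors deposited 1 table of log2 values made with RMA, per the submitters' processing notes, which corrects background, normalises by quantiles and summarises probes; the probe-set definition is not given in the sources used here. RNA was reverse transcribed and labelled with small-input cDNA kits, per the labels' protocols. Of 21625 probe sets, 64 were controls and 21561 carried RefSeq accessions, of which 5024 had no symbol in the RefSeq table of GRCm38.p6. The highest-mean probe set was kept for the 987 genes with several, leaving 15204 genes without a filter on low values; 88 had values identical to another gene. All 12 columns were assigned from their labels.

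Group means were fitted with limma 3.58.1 in R 4.3.3 (lmFit, eBayes, 8 residual degrees of freedom), the contrast weighting each in-vitro source equally, with Benjamini-Hochberg adjustment over all genes. SE is limma's, SD the spread of 3 arrays. Tables and figures used matplotlib 3.10.9 and pandas 2.3.3 under Python 3.11.15. The fit was tested on simulated data. A gene at or under an array's no-target level throughout one side is given a bound from that level. Named genes are the 12 called members per direction with the widest gap, up to 3 called members per list and direction (or the 1 largest difference where none was called), the 4 most and 4 least even per direction, 6 per direction dim on one side, those just inside and outside the rule, 3 called non-members per direction and 10 always-named genes; others, such as further list members, Pcx, Dusp1, Btg2 and Mcm3, were chosen after their values were seen. Of the 4 least even lower members, 1 is not reported here. Members and the 33 gene lists were chosen with earlier results of these data known. Of 1100 list entries 1030 were measured; Gfap, Gapdh, Mki67 and the globin genes were not. Replicate numbers were not used in the main model; after group means were removed, same-numbered single-cultured and co-cultured arrays correlated at 0.227, 0.135 and 0.232, and in no other pair of groups were all 3 above 0.1. Alternatives were another centring, cyclic loess, mean probe sets, a brightness filter, a replicate block, other variance settings, no fold minimum, a minimum gap, and leaving out each array or the b.End5 group.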

Additional observations from a re-analysis of the deposited data

Results flagged for a closer look

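A difference between the in-vitro sources stood out where b.End5 and the primary cultures lay on opposite sides of the fresh cells. This was so for 144 genes with all b.End5 arrays above and all 6 primary arrays below, and for 263 genes the other way round. In the contrast of b.End5 with the mean of the primary cultures, tested with limma, Fas differed by 4.63 (SE 0.33, adjusted p = 7.49e-07) and H2-T24, a nonclassical MHC class I gene, by 3.98, while Thbs1 differed by -7.25 (SE 0.17, adjusted p = 1.74e-10) and Vwf by -5.98 (SE 0.51, adjusted p = 3.27e-06). For Fas and H2-T24 b.End5 lay above and for Thbs1 and Vwf below the fresh level, as all 3 arrays showed. Enpp2, the lysophosphatidic acid-producing enzyme autotaxin, was lower over all sources (-1.41) and higher with b.End5 left out (1.30).

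Probe sets without a symbol entered no comparison. Of these 5024, all 9 in-vitro arrays lay below the fresh arrays for 399 (7.94%) and above them for 369 (7.34%).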

How the results depend on the processing

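With each array left out in turn, 2046 to 2162 genes passed the test, against 2115, and 3558 to 4057 genes met the rule, which can only gain genes when an array is dropped. Sources differed for 2335 to 2647 genes. The paired fit with a replicate block gave 2118 (2434 among sources) and kept 2108 of the calls. Cyclic loess gave 2117, mean probe sets 2119 and the dimmest 30% left out 1897. Housekeeping centring gave 973 members below and 3593 above. Without the b.End5 group 5433 genes met the rule, 2533 below and 2900 above, since fewer arrays have to lie on one side, and 2203 were called, of which 1747 were shared with the main result in the same direction and 1, Enpp2, turned. Without a fold minimum 5647 genes passed, and 4870 among sources; a gap of at least 1 log2 unit left 603 members. Of the 162 named genes, 18 lost a call under at least 1 alternative, 2 (Slc2a1 and Vwf) gained one and 0 reversed. Gbp3, Tiam1, Cxcl2, Aldoc, Ddit3 and S100a4 lost theirs without a single array, Vwf gained its own without b.End5 1 or 3, and Ttr, Mgp, Cyb561, Cxcl12, Elovl7, Fbp1, Hbegf, Jam3 and Slc7a7 lost theirs without the b.End5 group. Ezr, Gad1 and Pln lost theirs with housekeeping centring, and Slc2a1 and Vwf gained theirs with median centring or cyclic loess; the cause was not tested. Levels near the no-target signal, 4.01 to 4.46, limit the folds of dim genes to bounds.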

Other observations

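The array b.End5 2 set some values within its group. Inhba lay at 12.26 on it, against 5.93 and 6.01 on b.End5 1 and 3. Ocln, Abcb1a, Abcb1b and Vwf were lower on it, at 4.31, 5.39, 5.72 and 5.51, than on either other b.End5 array. Of the 162 named genes, 2 moved by at least 0.5 log2 units when it was left out, Inhba (5.32 to 4.62) and S100a4 (3.19 to 2.63). Its Y-linked Ddx3y, Uty and Kdm5d lay at 7.84, 5.93 and 5.38, where no other array exceeded 2.98.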
